A study of Sus scrofa with 6 samples.

Results

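The nuclear genes of oxidative phosphorylation were examined in peripheral blood mononuclear cells (PBMCs) of leptin transgenic pigs and controls. The members were the rows of the deposited table whose gene symbol begins with NDUF, UQCR or ATP5, or with COX and a digit from 4 to 8, or is SDHA, SDHB, SDHC, SDHD, CYC1 or CYCS. The rule used only the symbol and no measured value. It found 63 of the 11564 genes in the table, of which 27 were named as complex I genes, 6 as complex I assembly factors, 3 as complex II, 4 as complex III, 12 as complex IV and 10 as complex V genes, and 1 was cytochrome c (CYCS). SDHA and CYC1 were not analysed here. A further 4000 rows carried no symbol, and 9 of these have such a name in the reference name table and are described apart from the 63.

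PBMC libraries had been made from Yorkshire pigs at 6 months of age, with 3 labelled WT and 3 labelled leptin-overexpressing. The leptin transgenic pigs carried pig leptin behind the pig leptin promoter. They had been made by nuclear transfer from a neomycin-selected, transfected fibroblast line of the same breed, and the controls were animals without the transgene. The paper's protocol takes the donor cells from a male fetus, while its methods write of embryos. The leptin transgenic pigs may thus share a donor genotype. Neither the sex of the controls nor whether they were clones is given in the paper. Effects of sex or cloning therefore cannot be told apart from the label. Total RNA was sequenced as paired-end reads from strand-specific libraries, and the deposited table gives each gene an FPKM in each library, a fragment number scaled to transcript length and library size. Each library came from a different animal, so n was 3 per label, and the sequencing depth behind the values is unknown.

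Oxidative phosphorylation takes place at the inner mitochondrial membrane. Complex I accepts electrons from NADH and complex II from succinate, ubiquinone carries them to complex III, cytochrome c carries them on to complex IV, and complex IV passes them to oxygen. Complexes I, III and IV pump protons, and complex V (ATP synthase) uses their return to make ATP. Resting lymphocytes and monocytes rely in large part on this pathway, and activated lymphocytes raise both glycolysis and respiration. The core subunits that mitochondrial DNA encodes were not analysed here, so all values below are from nuclear genes.

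The transgene was read first. Of the libraries labelled WT, replicate 1 had 50.0 FPKM of LEP, replicate 2 a listed value of 0 and replicate 3 0.118 FPKM. Of those labelled leptin, replicate 1 had a listed value of 0, replicate 2 had 18.3 FPKM and replicate 3 had 39.3 FPKM. Both libraries numbered replicate 1 thus go against their labels. Every direction and every ranking of differences given below is therefore between labels. Whether these libraries were exchanged was not tested, and no fit was run with their labels exchanged. The library labelled WT replicate 1 also stood apart in its marker genes. Its 6 listed neutrophil genes summed to 3503 FPKM, against 408 to 1259 FPKM in the other libraries, with S100A8, S100A9, S100A12 and MMP8 highest there. MMP9 was highest in leptin replicate 2 instead, at 225 FPKM against 59.7 FPKM in WT replicate 1, and ELANE was at most 1.05 FPKM in each library. The B cell genes MS4A1, CD79A and CD79B were all 3 at their lowest there, with a sum of 284 FPKM against 449 to 539 FPKM elsewhere. The 8 T cell genes summed to 824 FPKM there and to 593 to 1006 FPKM elsewhere, the monocyte rows to 815 FPKM there and to 356 to 826 FPKM elsewhere, the natural killer rows to 575 and 233 to 547 FPKM, the platelet rows to 403 and 112 to 368 FPKM, and the 2 listed red cell genes to 217 and 21.8 to 102 FPKM. In bulk RNA, fewer cells of a type and less RNA per cell cannot be told apart. Because this library bears on most results for the members, values with and without it are given beside each other, and the part of its cell makeup in them was not tested.

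The 63 genes covered a wide range of levels, and that order was nearly the same in every library. The mean over 6 libraries ran from 0.972 FPKM for COX8H to 240 FPKM for COX7B, with a median of 40.4 FPKM. A mean above 100 FPKM was found for 12 genes and one below 10 FPKM for 11. Spearman correlations of the 63 levels between pairs of libraries were 0.989 to 0.996, across genes, which are not independent replicates. Complex IV genes had the highest median level (97.7 FPKM), followed by complex II (71.7 FPKM), complex V (69.1 FPKM), complex III (54.6 FPKM) and complex I (30.9 FPKM). The 6 assembly factors of complex I, which help to build the enzyme but are not part of it, had a median of 2.84 FPKM and a range of 1.21 to 18.7 FPKM. The genes lay on 18 chromosomes, of which X held 3 (COX7B, NDUFA1 and NDUFB11). A KEGG oxidative phosphorylation annotation was carried by 42 of the 63 rows.

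**Figure D1:**
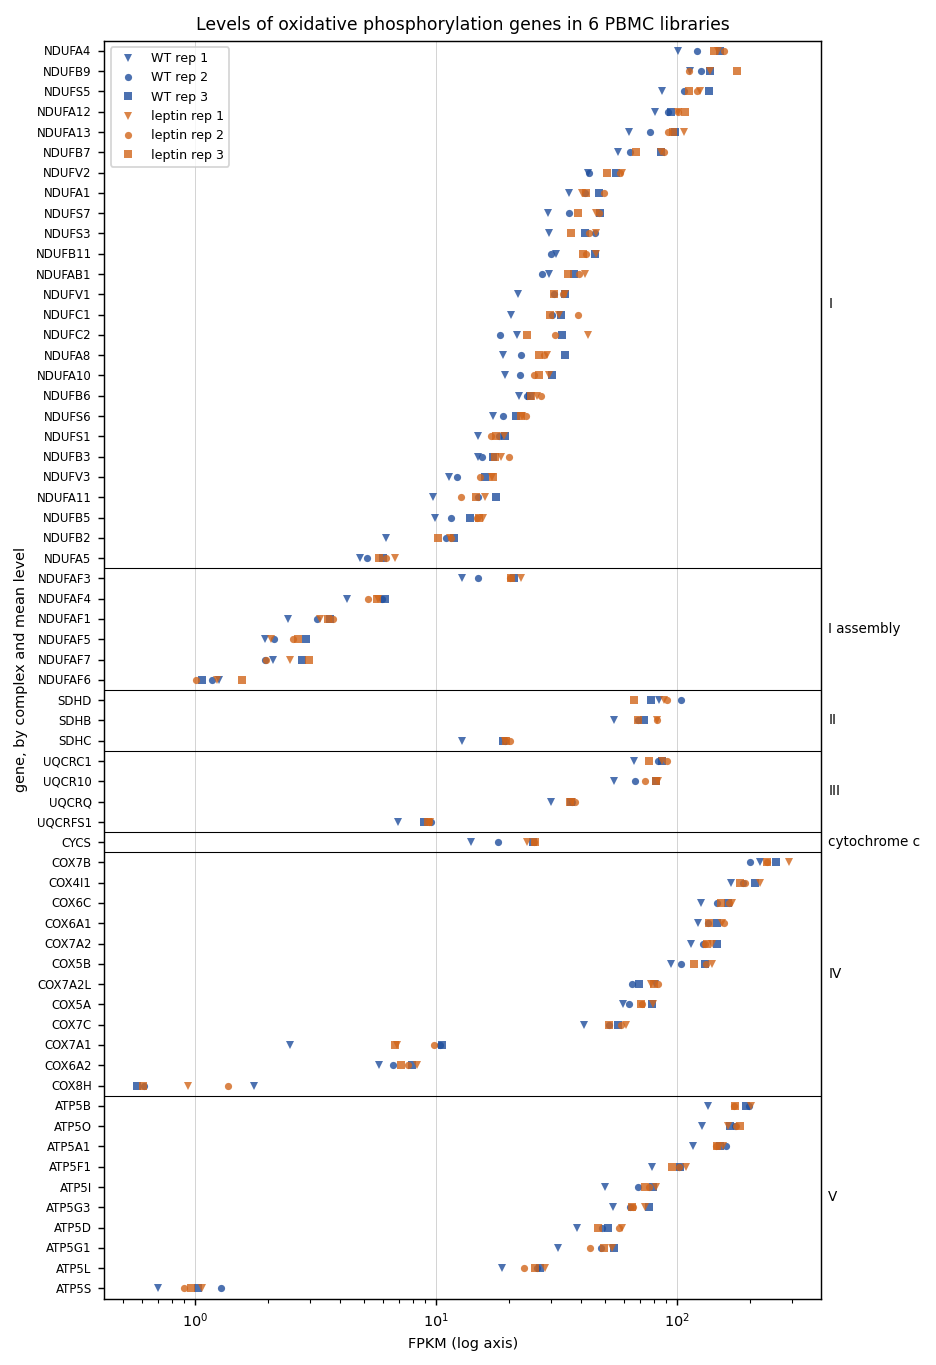
FPKM (log axis) of 62 of the genes in each of the 6 libraries, grouped by complex and ordered by mean level. Blue symbols are libraries labelled WT, orange symbols those labelled leptin, and the symbol shape gives the replicate number. The blue triangles of WT replicate 1 are the leftmost point for 52 of the genes drawn.

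Summed over the 63 genes, the libraries labelled WT had 2981, 3539 and 3962 FPKM and those labelled leptin had 4093, 3876 and 3729 FPKM. The means were 3494 ± 492 and 3899 ± 183 FPKM (SD, n = 3), and the groups overlapped because WT replicate 3 exceeded leptin replicates 2 and 3. As a share of all FPKM it was 0.670, 0.787 and 0.882% in WT-labelled libraries and 0.818, 0.770 and 0.798% in leptin-labelled libraries. The mean share was 0.780 ± 0.106% against 0.796 ± 0.024% (SD, n = 3), a difference smaller than the spread between libraries. The FPKM total itself was 444888 to 449653 in WT-labelled libraries and 467276 to 503140 in leptin-labelled libraries, which bears on every unscaled difference below.

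No gene of the 63 passed the test between labels. On the log2(FPKM + 1) scale, which understates changes of low genes, 62 of them entered the fit, which required 1 FPKM or more in at least 3 libraries. COX8H did not. In limma, 0 of 62 had an adjusted p under 0.05, where 0.00932% of all 10735 tested genes did (1 gene). At an unadjusted p under 0.05 the count was also 0, where 3.18% of all tested genes were called. The lowest unadjusted limma p was 0.0560, for NDUFB5, and adjusted p ran from 0.993 to 0.998. The log2 fold change, leptin minus WT, was above 0 for 60 of the 62 genes, where 63.1% of all tested genes were above 0. That direction rests on the labels as given. Summed over the 63 genes, WT replicate 1 was the lowest library (2981 FPKM) and leptin replicate 1 the highest (4093 FPKM). An exchange of these labels would put the highest sum under WT and the lowest under leptin. The median log2 fold change was 0.17 for the members and 0.059 for all tested genes. Standard errors were 0.135 to 0.440 with a median of 0.168. The 95% confidence interval of the difference lay within a log2 fold change of 1 in both directions for 60 of 62 genes, the exceptions being NDUFC2 and COX7A1 at their upper bounds.

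The library labelled WT replicate 1 weighed on the direction of many members. It was the lowest of the 6 libraries for 53 of the 62 tested genes, where it was lowest for 37.5% of all tested genes. The median log2 distance of the members from their gene means was -0.32 there, -0.057 in WT replicate 2 and 0.12 in WT replicate 3, and 0.15, 0.11 and 0.016 in leptin replicates 1, 2 and 3. For all tested genes the same quantity was -0.13, -0.030 and 0.079, and 0.11, -0.051 and 0.036. The members were thus lowest in WT replicate 1, close to their means in WT replicate 2, and as high in WT replicate 3 as in leptin-labelled libraries. Without WT replicate 1, 41 of 62 members were higher in leptin-labelled libraries, against 51.6% of all tested genes, and the median log2 fold change was 0.060 against 0.0066 for all tested genes.

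**Figure D2:**
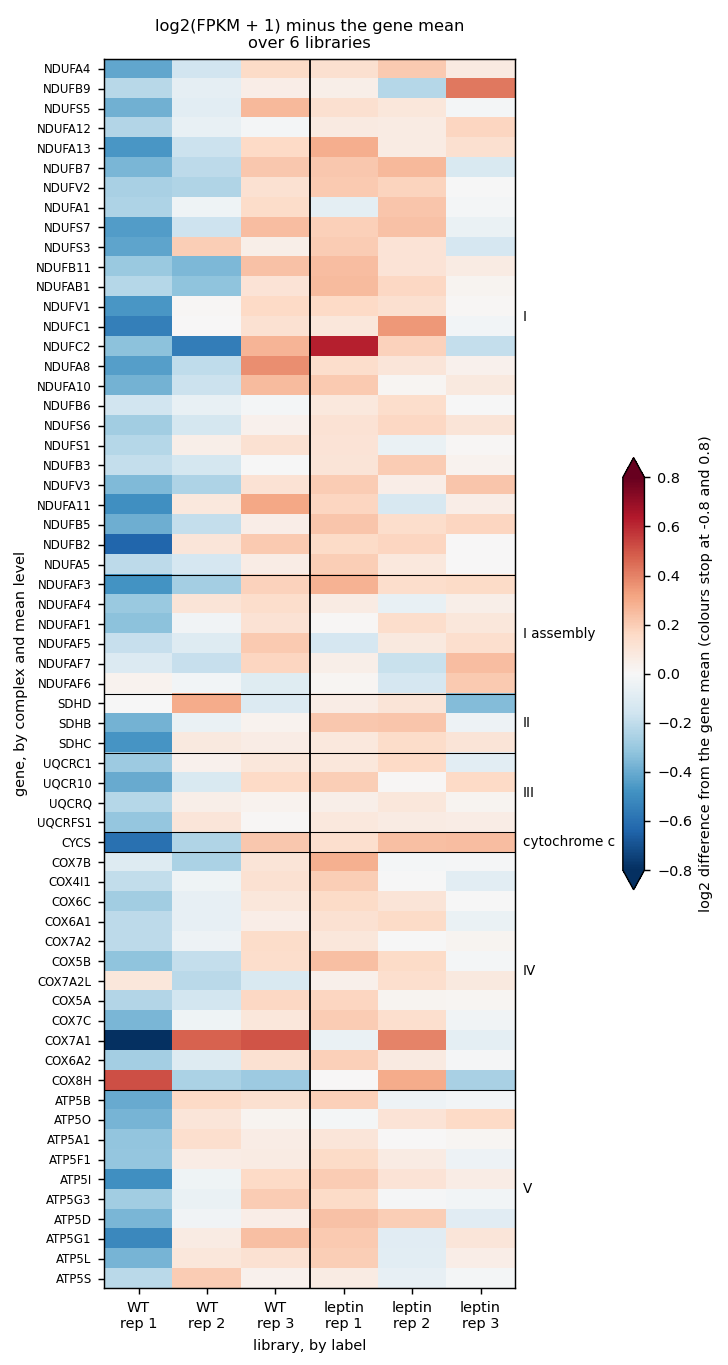
log2(FPKM + 1) of 62 of the genes minus the gene mean over the 6 libraries, by library (columns) and complex (rows, ordered by mean level within a complex). Blue is below and red above the gene mean, and the colours stop at -0.8 and 0.8. The column of WT replicate 1 is blue in all but a few rows, and COX8H, COX7A2L and NDUFAF6 are red there.

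Scaling moved these values as well. After median-of-ratios scaling between libraries (factors 0.904, 0.978 and 1.07 for the libraries labelled WT and 1.09, 0.963 and 1.03 for those labelled leptin), 58 of 61 tested members were higher, against 50.5% of all tested genes. The median was then 0.11, against 0.0022 for all tested genes. With every library set to the same FPKM total, 43 of 62 members were higher, against 37.4% of all tested genes, and the medians were 0.048 and -0.053. With both libraries numbered replicate 1 left out, 41 of 61 were higher, against 43.2%, with medians of 0.046 and -0.032. With median-of-ratios scaling and without WT replicate 1, 40 of 61 were higher, against 50.1%, with medians of 0.054 and 3.3e-04. The members' median minus that of all tested genes was 0.11 as reported, 0.11 with median-of-ratios scaling, 0.10 with equal totals and 0.053 without WT replicate 1. The members' median was above that of all tested genes in each of the 15 alternatives run, by 0.053 to 0.16, and these are descriptions, since genes of 1 pathway are not replicates.

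**Figure D3:**
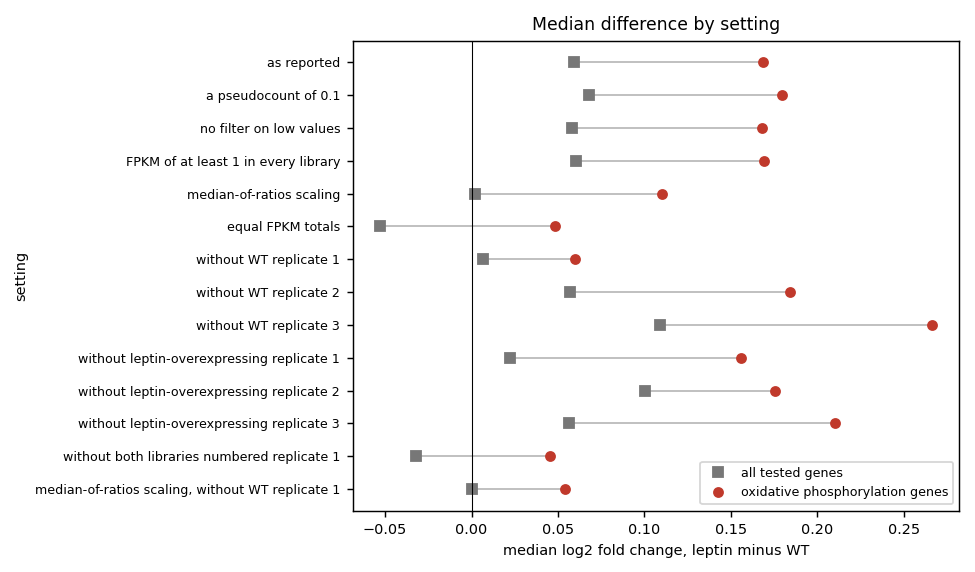
Median log2 fold change (leptin minus WT) of the oxidative phosphorylation genes (red circles) and of all tested genes (grey squares), as reported and under the listed alternatives. The red circle lies to the right of the grey square in each row, and the members' median ranges from 0.046 without both replicate 1 libraries to 0.27 without WT replicate 3.

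Leaving out the library labelled WT replicate 3 moved the picture the other way. Then 12 members had an unadjusted limma p under 0.05, all higher in leptin-labelled libraries, where 5.74% of all tested genes were called higher. They were the cytochrome c gene CYCS, the assembly factor NDUFAF3, and the complex I genes NDUFA4, NDUFA8, NDUFA13, NDUFAB1, NDUFB5, NDUFB11, NDUFC2, NDUFS7, NDUFV2 and NDUFV3. By gene name, no member of complexes II, III, IV or V was among them, although the protein of NDUFA4 has since been assigned to complex IV. UQCR11 of complex III, which has no symbol in the table and so is no member, had an unadjusted limma p of 0.0103 in the same fit. Their lowest adjusted limma p was 0.614, and the median log2 fold change of the members was 0.27 against 0.11 for all tested genes. WT replicate 3 was the WT-labelled library in which the members were highest, and without it that label rests on replicate 2 and on replicate 1, whose LEP level goes against it.

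Complex I, the entry point for electrons from NADH, had 27 listed genes, all 27 with a log2 fold change above 0 and a median of 0.22. Their summed level was 947, 1114 and 1337 FPKM in WT-labelled libraries and 1352, 1303 and 1274 FPKM in leptin-labelled libraries, so WT replicate 3 lay within the leptin range. Without WT replicate 1 the median was 0.11, with 20 of 27 above 0. Without WT replicate 3 it was 0.37, and with equal totals 0.099. WT replicate 1 was the lowest library for 23 of the 27.

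Of the 27 genes, 21 were listed as accessory subunits (NDUFA4 among them), which surround the electron-carrying core of the enzyme and stabilise it. Their median log2 fold change was 0.22, and 0.13 without WT replicate 1, when 17 of the 21 were above 0. WT replicate 1 was the lowest library for 17 of them.

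NDUFB5 (ENSSSCG00000011764, chromosome 13 from 126750843 to 126765741 as the table places it), an accessory subunit of the membrane arm, had the lowest p of all members. It was at 9.87, 11.5 and 13.8 FPKM in WT-labelled libraries and at 15.6, 14.7 and 15.1 FPKM in leptin-labelled libraries. The groups did not overlap, and the leptin libraries lay close together while the WT libraries were spread. Its log2 fold change was 0.35 with a 95% confidence interval of -0.011 to 0.72 (adjusted p = 0.993, limma), and 0.25 without WT replicate 1. It was named after its values were seen.

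Groups without overlap were found for 6 of the 62 tested members, where 7.63% of all tested genes had no overlap in either direction. In all 6 the libraries labelled leptin were above those labelled WT. The opposite order was found for 0 members, where 2.63% of all tested genes had it. Besides NDUFB5 they were NDUFA12, NDUFB3, NDUFB6, NDUFS6 and the complex II gene SDHC, so that 5 of the 6 were accessory subunits of complex I. NDUFS6, which binds zinc next to the iron-sulphur subunits, was at 17.1, 18.9 and 21.5 FPKM in WT-labelled libraries and at 22.7, 23.6 and 22.5 FPKM in leptin-labelled libraries. NDUFB3 was at 14.9, 15.5 and 17.1 FPKM and at 18.5, 20.0 and 17.6 FPKM in the same order. For both genes the nearest libraries of the groups were about 1 FPKM apart or closer. NDUFA12 was at 81.1, 91.8 and 94.6 FPKM and at 100.5, 100.4 and 108 FPKM, and NDUFB6 at 22.2, 23.7 and 24.5 FPKM and at 26.3, 27.3 and 24.7 FPKM. The log2 fold changes of these 4 genes were 0.15 to 0.25, and 0.11 to 0.18 without WT replicate 1, all with an adjusted limma p of 0.993.

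The largest difference in complex I was that of NDUFC2 (ENSSSCG00000014889, chromosome 9 from 13821216 to 13827297), a small membrane subunit. NDUFC2 was at 21.5, 18.4 and 33.2 FPKM in WT-labelled libraries and at 42.5, 31.1 and 23.8 FPKM in leptin-labelled libraries. The groups overlapped widely, and the value of leptin replicate 1 was the highest while WT replicate 2 was the lowest. The log2 fold change was 0.41 with a 95% confidence interval of -0.22 to 1.03 (adjusted p = 0.993, limma), and 0.34 without WT replicate 1. It depended more on other libraries, with 0.23 without WT replicate 2, 0.64 without WT replicate 3, 0.20 without leptin replicate 1 and 0.60 without leptin replicate 3. Without both libraries numbered replicate 1, whose LEP goes against their labels, it was 0.14.

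NDUFA4 had the highest level among genes named for complex I, although its protein has since been assigned to complex IV. It was at 100.9, 121.5 and 150.3 FPKM in WT-labelled libraries and at 147.9, 156.6 and 142.2 FPKM in leptin-labelled libraries. WT replicates 1 and 2 were below every leptin library, and WT replicate 3 was among them. NDUFA4 had a log2 fold change of 0.28, 0.14 without WT replicate 1 and 0.42 without WT replicate 3. NDUFA5, an accessory subunit of the peripheral arm, had the lowest level in the complex, with 4.84, 5.17 and 6.04 FPKM against 6.75, 6.17 and 5.79 FPKM. NDUFA5 had a log2 fold change of 0.19, and 0.13 without WT replicate 1.

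NDUFB9, NDUFAB1 and NDUFV3 differed in which library stood out, and they were named after their values were seen. NDUFB9 was at 112.7, 125.5 and 137 FPKM in WT-labelled libraries and at 136.5, 112.3 and 176.8 FPKM in leptin-labelled libraries, so that both its lowest and its highest value were in leptin libraries. Its log2 fold change of 0.16 was -0.011 without leptin replicate 3. NDUFAB1, the mitochondrial acyl carrier protein that also serves fatty acid synthesis in the organelle, was at 29.5, 27.6 and 37.5 FPKM and at 41.5, 39.0 and 35.3 FPKM. Its lowest library was WT replicate 2, and its log2 fold change was 0.29, and 0.25 without WT replicate 1. NDUFV3, a small subunit beside the flavin site, was at 11.3, 12.2 and 16.0 FPKM and at 16.98, 15.2 and 17.3 FPKM, with a log2 fold change of 0.32, and 0.22 without WT replicate 1.

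The complex I assembly factors (the NDUFAF genes) were 6 in number, all with a log2 fold change above 0 and a median of 0.070. Without WT replicate 1 the median was 0.039, and 4 of the 6 were above 0. It was 0.18 without WT replicate 3, 0.14 without leptin replicate 2, 0.0093 without leptin replicate 3, and -0.0089 with equal totals. NDUFAF3 (ENSSSCG00000011371, chromosome 13 from 34899944 to 34901091), which acts early in assembly with NDUFAF4, was the most abundant. It was at 12.8, 15.0 and 21.0 FPKM in WT-labelled libraries and at 22.4, 20.3 and 20.5 FPKM in leptin-labelled libraries, and only WT replicate 3 fell in the leptin range. NDUFAF3 had a log2 fold change of 0.38 with a 95% confidence interval of -0.063 to 0.82 (adjusted p = 0.993, limma), and 0.23 without WT replicate 1. Its partner NDUFAF4 was at 4.26, 5.95 and 6.12 FPKM and at 5.75, 5.21 and 5.68 FPKM, so that WT replicates 2 and 3 exceeded every leptin library. NDUFAF4 had a log2 fold change of 0.035, which turned to -0.10 without WT replicate 1 and to -0.019 with median-of-ratios scaling. NDUFAF6, the lowest of the group, was at 1.25, 1.18 and 1.06 FPKM and at 1.23, 1.01 and 1.55 FPKM, near the floor of the filter and with its highest and lowest values both in leptin libraries. NDUFAF6 had a log2 fold change of 0.061, which turned to -0.0077 with equal totals.

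Complex II, which oxidises succinate and belongs to the tricarboxylic acid cycle as well, had 3 listed genes that did not share 1 direction. SDHB, the iron-sulphur subunit, was at 54.4, 68.6 and 72.6 FPKM in WT-labelled libraries and at 82.7, 82.9 and 69.1 FPKM in leptin-labelled libraries. SDHC, 1 of the 2 membrane anchors, was at 12.8, 19.2 and 18.9 FPKM and at 19.3, 20.2 and 19.5 FPKM. The SDHC groups did not overlap, but WT replicate 2 was almost level with leptin replicate 1. SDHD, the other anchor, was at 84.3, 103.7 and 78.1 FPKM and at 87.9, 90.7 and 66.0 FPKM, with the highest library labelled WT and the lowest labelled leptin. The log2 fold changes were 0.26 for SDHB, 0.22 for SDHC and -0.12 for SDHD, and 0.14, 0.042 and -0.15 without WT replicate 1. SDHD was at -0.0071 without WT replicate 2 and turned to 0.020 without leptin replicate 3. The 95% confidence interval of SDHD was -0.55 to 0.30 (adjusted p = 0.993, limma), which holds the values of SDHB and SDHC.

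Complex III, which passes electrons from ubiquinol to cytochrome c, had 4 listed genes, all lowest in WT replicate 1. UQCRC1, a core protein of the complex, was at 66.3, 83.3 and 86.7 FPKM in WT-labelled libraries and at 86.6, 91.1 and 76.5 FPKM in leptin-labelled libraries. UQCR10, a small subunit, was at 54.9, 67.1 and 81.8 FPKM and at 83.7, 73.6 and 81.6 FPKM. UQCRFS1, the Rieske iron-sulphur protein, was the least abundant of the 4, at 6.94, 9.49 and 8.88 FPKM and at 9.40, 9.30 and 9.22 FPKM. Apart from WT replicate 1, the UQCRFS1 values of both groups lay between 8.88 and 9.49 FPKM. The log2 fold changes were 0.11 for UQCRC1, 0.24 for UQCR10 and 0.14 for UQCRFS1. Without WT replicate 1 they were -0.0071, 0.099 and 0.017, and the median of the complex moved from 0.12 to 0.015. With equal totals and all 6 libraries that median was 0.0020, and it was 0.19 without WT replicate 2. UQCR10 was at 0.38 without WT replicate 3.

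CYCS (ENSSSCG00000016714, chromosome 18 from 52036067 to 52038371) is the somatic cytochrome c that shuttles electrons between complexes III and IV and triggers caspase activation when released. Between the labels as given, it had the highest log2 fold change of all members. It was at 13.9, 18.1 and 25.1 FPKM in WT-labelled libraries and at 23.8, 25.6 and 25.7 FPKM in leptin-labelled libraries. WT replicate 3 lay inside the leptin range, and WT replicates 1 and 2 lay below it. The log2 fold change was 0.41 with a 95% confidence interval of -0.073 to 0.90 (adjusted p = 0.993, limma), 0.35 after median-of-ratios scaling, 0.22 without WT replicate 1 and 0.62 without WT replicate 3. It was 0.25 without both replicate 1 libraries. With their labels exchanged, the lowest value (13.9 FPKM) would be under leptin. Mammalian genomes carry processed copies of CYCS, and how reads matching several copies were shared out is not given in the sources used here.

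Complex IV, cytochrome c oxidase, had 12 listed genes and the highest median level of the complexes. Of its 11 tested genes all were above 0, with a median log2 fold change of 0.17, and 8 were above 0 without WT replicate 1, with a median of 0.074. The median was 0.26 without WT replicate 3 and 0.041 with equal totals. Summed over the complex, the level was 1037, 1098 and 1275 FPKM in WT-labelled libraries and 1349, 1244 and 1175 FPKM in leptin-labelled libraries. COX7B, the most abundant member in all, was at 221, 199.8 and 256 FPKM and at 290.3, 235.9 and 236.6 FPKM, with its lowest value in WT replicate 2. COX7B had a log2 fold change of 0.17, and 0.16 without WT replicate 1, 0.086 without WT replicate 2, 0.27 without WT replicate 3 and 0.072 without leptin replicate 1. COX5B, a matrix-side regulatory subunit, had the largest difference of the complex and was at 94.3, 103.5 and 130.3 FPKM and at 140.2, 131.6 and 117.1 FPKM. COX5B had a log2 fold change of 0.25, with a 95% confidence interval of -0.14 to 0.64 (adjusted p = 0.993, limma), 0.15 without WT replicate 1, 0.38 without WT replicate 3 and 0.12 with equal totals. Without both libraries numbered replicate 1 the COX5B value was 0.095. COX4I1, the subunit that binds ATP as an allosteric inhibitor, was at 167.6, 188.1 and 210.1 FPKM and at 220.7, 192.1 and 181.9 FPKM. COX4I1 had a log2 fold change of 0.073, and -0.0091 without WT replicate 1.

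COX7A2L, a COX7A-related protein that joins complexes III and IV into supercomplexes, had a pattern unlike most members. It was at 80.6, 64.9 and 69.3 FPKM in WT-labelled libraries and at 77.7, 83.2 and 79.9 FPKM in leptin-labelled libraries. WT replicate 1, the lowest library for most members, was its second highest. Its log2 fold change was 0.17, and 0.26 without that library, 0.10 without WT replicate 2 and 0.040 with equal totals. It was named after its values were seen.

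Some subunits of complex IV exist as a general form and a form typical of heart and skeletal muscle, and both were listed for COX6A and COX7A. COX6A1, the general form, was at 122, 134.9 and 146 FPKM in WT-labelled libraries and at 153.4, 156.8 and 135.6 FPKM in leptin-labelled libraries. COX6A2, the muscle form, was at 5.78, 6.63 and 7.90 FPKM and at 8.32, 7.61 and 7.13 FPKM, which was 4.53 to 5.15% of the summed FPKM of the pair in every library. COX7A2, the general form, was at 114, 128.1 and 145.8 FPKM and at 140.1, 131.2 and 133.5 FPKM. COX7A1 (ENSSSCG00000025533, chromosome 6 from 40921404 to 40922901), the muscle form, was at 2.47, 10.4 and 10.6 FPKM and at 6.88, 9.77 and 6.76 FPKM, and was thus 2.12, 7.48 and 6.77% of its pair in WT-labelled libraries and 4.68, 6.93 and 4.82% in leptin-labelled libraries. The highest COX7A1 value was 4.29 times the lowest, the widest spread of any member. Its log2 fold change of 0.18 (standard error 0.44) turned to -0.40 without WT replicate 1 (standard error 0.19). COX8H, the muscle form of the eighth subunit, was at 1.75, 0.613 and 0.572 FPKM and at 0.928, 1.37 and 0.608 FPKM, and was the only member highest in WT replicate 1.

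Complex V, ATP synthase, had 10 listed genes, of which 9 were above 0 with all libraries and 3 without WT replicate 1. Its median log2 fold change was 0.11, -0.043 without WT replicate 1, 0.18 without WT replicate 2, 0.21 without WT replicate 3, 0.073 without leptin replicate 1 and -0.011 with equal totals. WT replicate 1 was the lowest library for all 10. The summed level was 649 FPKM there, 892 and 904 FPKM in the other libraries labelled WT, and 925, 863 and 860 FPKM in leptin-labelled libraries, so that 5 of the 6 libraries lay between 860 and 925 FPKM. ATP5B, the catalytic beta subunit, was at 133.8, 198 and 193.9 FPKM in WT-labelled libraries and at 202.5, 172.3 and 174.5 FPKM in leptin-labelled libraries. ATP5B had a log2 fold change of 0.081, and -0.10 without WT replicate 1. ATP5I, the e subunit of the membrane part, had the largest difference, at 50.1, 69.1 and 79.3 FPKM and at 81.8, 76.5 and 73.8 FPKM. The ATP5I log2 fold change was 0.25 with a 95% confidence interval of -0.19 to 0.68 (adjusted p = 0.993, limma), 0.061 without WT replicate 1, 0.39 without WT replicate 3 and 0.12 with equal totals. Without both libraries numbered replicate 1 the ATP5I value was 0.020. ATP5S, named for a coupling factor of the enzyme, was at 0.703, 1.27 and 1.02 FPKM and at 1.07, 0.894 and 0.958 FPKM, close to the 1 FPKM of the filter, with a log2 fold change of -0.010.

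Within complex V, the median log2 fold change was 0.081 for ATP5A1 and ATP5B of the catalytic head grouped with ATP5D. It was 0.11 for the c ring genes ATP5G1 and ATP5G3, and 0.14 for ATP5F1, ATP5O, ATP5L and ATP5I of the stalk and membrane. Without WT replicate 1 these medians were -0.061, -0.057 and 0.0097. ATP5D is not part of the catalytic head, and its log2 fold change was 0.23, against 0.081 for ATP5B and 0.078 for ATP5A1. Without WT replicate 1 the values were 0.10 for ATP5D, -0.10 for ATP5B and -0.061 for ATP5A1. The medians therefore do not compare the catalytic head with the stalk. ATP5G1 and ATP5G3 encode the same mature c subunit, and ATP5G1 made up 37.1 to 43.2% of their summed FPKM, with the lowest share in WT replicate 1.

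**Figure D4:**
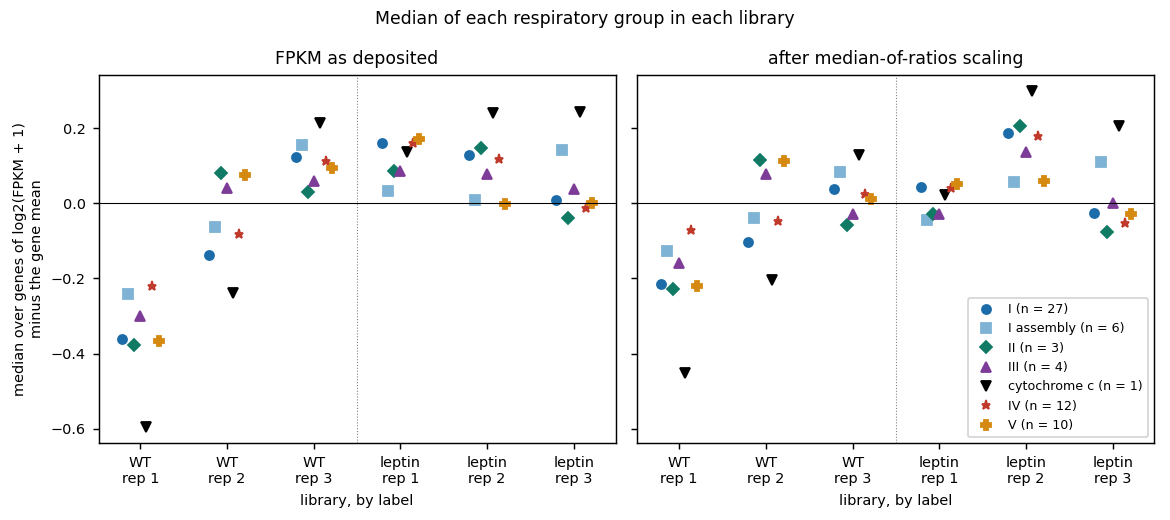
Median over the genes of each complex of log2(FPKM + 1) minus the gene mean, in each library, for the FPKM as deposited (left) and after median-of-ratios scaling (right). With the deposited values every group lies below 0 in WT replicate 1, from -0.22 for complex IV to -0.59 for cytochrome c. In WT replicate 3 every group lies above 0 with the deposited values, while complexes II (-0.057) and III (-0.028) lie below 0 there after scaling.

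The levels of most members varied together across libraries. The correlation of each gene with the median of the other members over the 6 libraries had a median r of 0.90, was above 0.8 for 46 of 63 genes and below 0 for 4 (COX8H at -0.53, NDUFAF6 at -0.27, COX7A2L at -0.092 and SDHD at -0.082). These values are descriptions over 6 libraries that share their scale, and WT replicate 1 was the lowest library for most of the genes. The same correlation was not computed for all tested genes, so whether varying together is particular to the members was not tested. The highest level of a gene was 1.52 times its lowest at the median of the members, and 1.61 times at the median of the 10649 tested genes with values above 0 in each library.

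**Figure D5:**
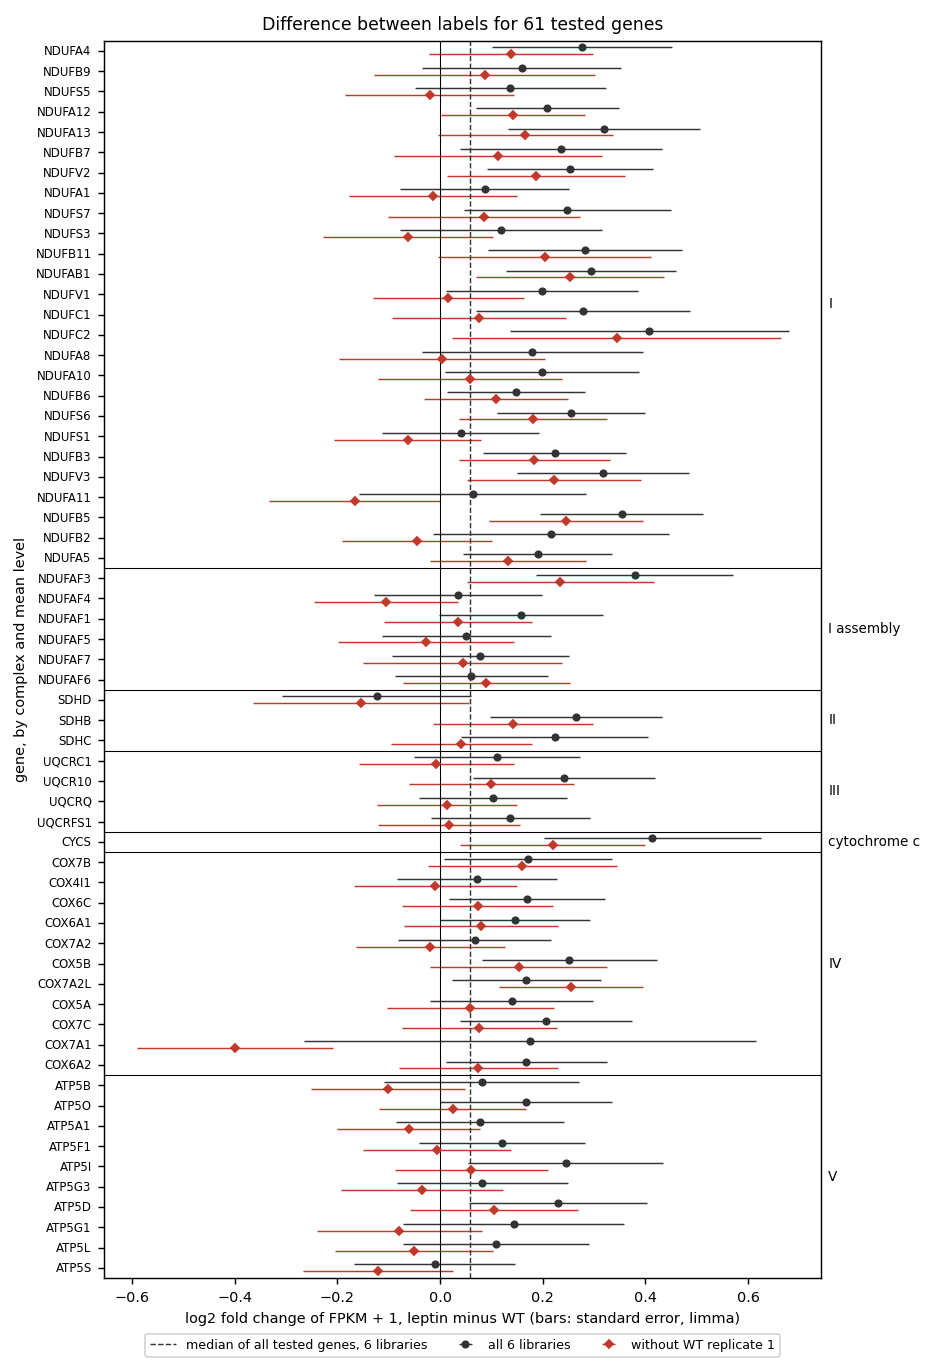
log2 fold change of FPKM + 1 (leptin minus WT) for 61 of the tested genes by complex, with all 6 libraries (black circles) and without WT replicate 1 (red diamonds), with bars of 1 standard error from limma and a dashed line at the median of all tested genes, 0.059. Black circles lie to the right of 0 for 59 genes and red diamonds for 41, and COX7A1 has the widest shift between them, from 0.18 to -0.40.

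The 9 rows without a symbol that the reference name table gives such names (COX8A, NDUFA2, NDUFA6, NDUFA9, NDUFB1, NDUFB8, NDUFS4, UQCR11 and UQCRC2) were fitted as well. All 9 were above 0, with a median log2 fold change of 0.17 as for the members, and 8 were lowest in WT replicate 1. Without that library 7 of the 9 were above 0, with a median of 0.14 against 0.060 for the members, and 0 had an unadjusted limma p under 0.05 with all libraries. UQCR11, a small subunit of complex III, had the largest difference, at 40.6, 42.8 and 61.8 FPKM in WT-labelled libraries and at 73.4, 66.8 and 55.2 FPKM in leptin-labelled libraries. Its log2 fold change was 0.44 (adjusted p = 0.993, limma), and 0.32 without WT replicate 1.

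Other genes of the pathway were read from written lists. Further assembly factors had 33 rows, 2 of them named TTC19, and 32 rows were tested, with 27 above 0, a median log2 fold change of 0.15, and 0.085 without WT replicate 1. At an unadjusted limma p under 0.05 there were 2 of 32, where 3.18% of all tested genes were called, and 0 passed adjustment. Both were higher in leptin-labelled libraries and without overlap between labels, which held for 7.63% of all tested genes in either direction. COX16, an assembly factor of complex IV, was at 2.86, 3.08 and 4.51 FPKM in WT-labelled libraries and at 5.65, 6.32 and 5.53 FPKM in leptin-labelled libraries. The difference was 0.62 on the log2 scale (SE 0.17; limma adjusted p = 0.993), and 0.53 without WT replicate 1. SDHAF2, which attaches the flavin to complex II, was at 9.24, 11.3 and 8.85 FPKM and at 12.4, 18.3 and 12.8 FPKM. The SDHAF2 difference was 0.51 on the log2 scale with an SE of 0.19 (limma adjusted p = 0.993), and 0.48 without WT replicate 1. WT replicate 1 was the lowest library for COX16, as for most members, and lay between the other WT libraries for SDHAF2.

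A mixed list held transcriptional regulators of these nuclear genes, TWNK, TFB1M and TFB2M, which act on mitochondrial DNA or RNA, the synthase inhibitor ATPIF1, and HIGD1A and HIGD2A, which bind cytochrome c oxidase or its supercomplexes. It had 12 genes listed and 11 tested, with 8 above 0 and 3 below, a median of 0.078 and 0 at an unadjusted limma p under 0.05. Without WT replicate 1 the median was 0.048, with 7 above 0. NRF1, the transcription factor known for its sites at many respiratory genes, was at 7.88, 7.38 and 9.70 FPKM in WT-labelled libraries and at 10.01, 8.10 and 8.35 FPKM in leptin-labelled libraries. The 16 listed genes of the tricarboxylic acid cycle and of pyruvate dehydrogenase, the enzyme complex that feeds it (PDHA1, PDHB, PDHX and DLAT), were all tested and had 13 above 0, a median of 0.10, and 0.0080 without WT replicate 1. Another 17 rows, COX17 of the assembly factor list among them, carried the KEGG oxidative phosphorylation annotation without being members, most of them subunits of the vacuolar proton pump. Of these rows 16 were tested, with 11 above 0 and a median of 0.064, and 0.029 without WT replicate 1. None of the last 3 lists had a gene with an unadjusted limma p under 0.05 (0, 0 and 0), and 11 of the 16 genes of the cycle and pyruvate dehydrogenase were lowest in WT replicate 1.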

How the data were processed

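PBMC RNA of 6 pigs was measured, with groups from the sample titles. The authors' text names Bowtie, the Ensembl version 75 transcriptome and RSEM, the submitters' processing notes name STAR 2.5, Cuffnorm and DESeq 1.22.1, and the deposited values are FPKM per gene and library. The genome build is not given in the sources used here. The authors' columns of fold changes, p-values, FDR and calls were not used, and 0 columns of per-sample values were left unmatched.

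Members and lists were chosen with earlier results of these data known. FPKM was fitted as log2(FPKM + 1) over 10735 genes with at least 1 FPKM in at least 3 libraries, by label, with limma 3.58.1 (lmFit, eBayes) in R 4.3.3, two-sided, with Benjamini-Hochberg adjustment over all genes tested, and the fit was tested on simulated data. Summaries used Python 3.11.15. FPKM hold no read counts, so depth is unknown, and precision rests on 3 libraries per label.

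Named genes were, in each complex, those with the highest and lowest mean level, the largest rise and the largest fall, all of complex II, CYCS, both members of muscle isoform pairs, and any gene of a list with an unadjusted p under 0.05. Other genes were named after their values were seen. Of 11564 gene identifiers, 7417 matched the reference name table (Sscrofa11.1 names), as did 38 of the 63 members, 33 under the same symbol and 5 under a newer one. Alternatives tried were a pseudocount of 0.1, filters on low values, median-of-ratios scaling, equal FPKM totals, no moderation, the replicate number as a block, and libraries left out. Promoter and protein sequences were not analysed here. A member that entered the fits and counts and a marker gene are not reported here.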

Additional observations from a re-analysis of the deposited data

How the results depend on the processing

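Of 15 alternatives, 1 (median-of-ratios scaling without WT replicate 1) was chosen after seeing the data. The count of members with an adjusted limma p under 0.05 was 0 in each. The count higher at an unadjusted limma p under 0.05 was 1 of 61 with median-of-ratios scaling (NDUFB5) and 0 to 12 with a library left out. It was 12 only without WT replicate 3, where 5.74% of all tested genes were called higher. Without moderation it was 1 of 62 (NDUFB3). As reported, 3.18% of all tested genes were called in either direction. That share was not computed for the other alternatives, so a count of 1 cannot be read as a result about the members. Without both replicate 1 libraries the median log2 fold change was 0.026 for complex IV and -0.089 for complex V, and with 1 library left out it was 0.074 to 0.26 and -0.043 to 0.21. With the replicate number as a block, 0 members had an unadjusted p under 0.05 and the median stayed at 0.17. The deviations of same-numbered libraries from their label means correlated with r of -0.28, 0.13 and -0.0073, and 1 of 6 libraries correlated best with its own number. With so few libraries per label these values cannot show whether same-numbered libraries were paired. The fit as reported had 0 member calls, so the block had none to remove.

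Of 34 genes followed, 25 kept their sign throughout, which is not a share of all members. The turns listed below are those of genes followed. Over all tested members, 60 of 62 were above 0 with all libraries and 41 without WT replicate 1, so members not followed turned as well. NDUFAF4 was 1 of these, with -0.10 without WT replicate 1 and -0.019 with median-of-ratios scaling. With equal totals, log2 fold changes turned to -0.047 for ATP5B, -0.061 for COX7A2, -0.0077 for NDUFAF6, -0.017 for UQCRC1 and -0.056 for COX4I1. That scaling moves all genes of a library alike, and the median of all tested genes went from 0.059 to -0.053, so these turns are not particular to these genes. Without both replicate 1 libraries log2 fold changes turned to -0.18 for ATP5B, -0.33 for COX7A1, -0.046 for COX7A2, -0.025 for UQCRC1 and -0.089 for COX4I1. With median-of-ratios scaling and without WT replicate 1 they turned to -0.11, -0.40, -0.026, -0.014 and -0.016 in the same order. With 1 library left out, the ranges were -0.10 to 0.18 for ATP5B, -0.12 to 0.018 for ATP5S (only without WT replicate 1, leptin replicate 2 or leptin replicate 3, since it failed the filter in the other fits), -0.40 to 0.47 for COX7A1, -0.019 to 0.16 for COX7A2, -0.029 to 0.14 for NDUFAF6, -0.21 to 0.020 for SDHD, -0.0071 to 0.18 for UQCRC1, -0.011 to 0.31 for NDUFB9 and -0.0091 to 0.15 for COX4I1. The causes were not tested.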
